A study of Rattus norvegicus with 2 samples.

Results

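Retinol saturase (Retsat) and 8 genes of retinoid metabolism and signalling (Aldh1a1, Aldh1a2, Dhrs3, Rara, Rarb, Rarg, Rxra and Rxrb) were examined in the myocardium of spontaneously hypertensive rats. The 9 genes were picked by name, after Retsat had been seen among the genes with the lowest ratios in these same libraries, from the 13706 protein-coding genes listed in either deposited table. The Retsat difference is therefore a description and not an independent finding. The rats, an inbred hypertensive strain, received either KXH, the high dose (9.6 g/kg, into the stomach) of the herbal Jiangya Kangxian formula, or distilled water, for 12 weeks. Both groups are hypertensive rats, and no normotensive control was analysed here. The labels used here do not state the heart chamber, the sex or age of the rats, or the number of animals per library. Each group had 1 library of total RNA, so there is no replicate check and no test between treatments, and "higher" and "lower" describe these 2 libraries.

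Retinoids are vitamin A and its derivatives. Retinol is oxidised to retinal, and retinaldehyde dehydrogenases (Aldh1a1, Aldh1a2) oxidise retinal further to retinoic acid, while the reductase Dhrs3 turns retinal back into retinol. Retsat adds hydrogen to all-trans-retinol and makes dihydroretinol; in mammals its transcript is abundant in fat, liver and kidney. Retinoic acid binds the receptors RAR alpha, beta and gamma (Rara, Rarb, Rarg), which sit on DNA paired with a retinoid X receptor (RXR). RXRs also pair with the receptors for fatty acids (PPARs), thyroid hormone and oxysterols. In the embryonic heart, retinoic acid made by Aldh1a2 patterns the inflow region and the epicardium.

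All 9 genes had reads in both libraries and mean levels of 1 RPKM or more (RPKM, reads per kilobase of transcript and 1000000 reads of the table). Retsat was the only one at least 2-fold apart, at 61.9 RPKM with KXH and 140.4 RPKM with water. Aldh1a2 was the only one at least 1.5-fold higher with KXH. The other 7 genes had RPKM ratios of KXH over water between 0.852 (Dhrs3) and 1.00 (Rxra). Of the 10467 protein-coding genes whose mean level reached 1 RPKM, 2.48% were at least 1.5-fold lower and 1.39% at least 1.5-fold higher; for 2-fold these shares were 0.497% and 0.248%. Against that stand 1 of 9 retinoid genes in each direction, 1 of them the gene that prompted the choice. The median ratio of the 9 was 0.944, and that of all 10467 genes was 0.985.

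**Figure D1:**
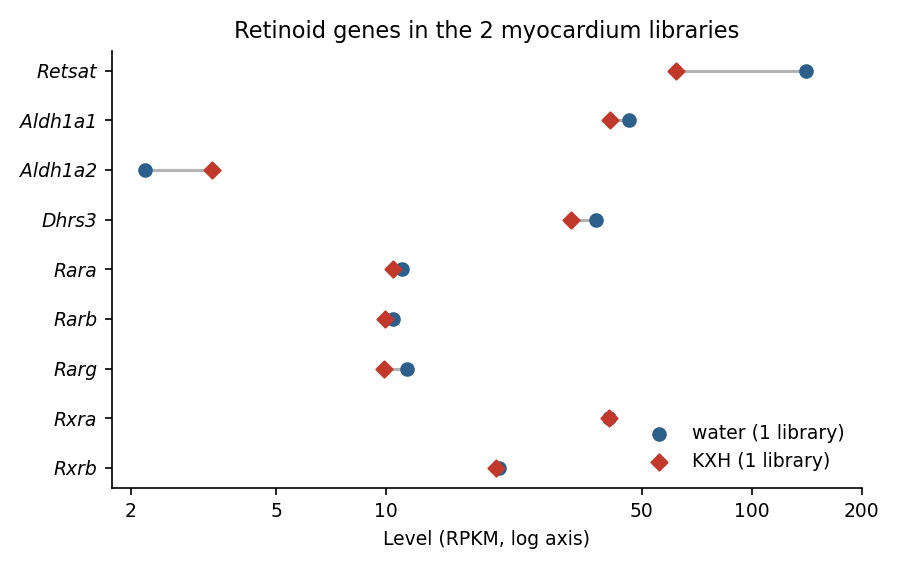
Level of each of the 9 retinoid genes (RPKM, log axis) in the water library (circles) and the KXH library (diamonds), 1 library per group and no error bars. Retsat spans 61.9 to 140.4 RPKM, Aldh1a2 lies lowest at 2.18 and 3.33 RPKM, and the points of each RXR gene almost coincide.

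Retsat was counted from 1614 reads with KXH and 3932 reads with water, or 115 and 260.4 per 1000000 reads. The listed length was equal in both, and reads covered 99.8% and 99.9% of it. Its ratio was 0.441, with a 95% exact Clopper-Pearson interval of 0.416 to 0.467, or 2.27-fold lower. That interval covers the counting error of reads only, and the spread between animals is not in it. Reads that carry no molecular identifier need not stem from separate molecules, so the interval can be too narrow. With 1 RPKM added to both values the log2 ratio was -1.17. In the order of abundance Retsat was gene 486 in the water library and gene 1169 in the KXH library. In this bulk RNA, fewer cells of a type and less RNA per cell cannot be told apart.

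Such a ratio was rare at the abundance of Retsat. Retsat was picked after its low ratio had been seen in these libraries, so the ranks that follow describe it and are no independent evidence. Of the 584 genes with a mean RPKM within 1.5-fold of that of Retsat, the central 90% of which had ratios between 0.904 and 1.16, Retsat had the lowest ratio, and 3 of the 584 were at least 1.5-fold lower. It was also the lowest of the 1462 genes at a mean level of 50 RPKM or more. Among the 7968 genes at 5 RPKM or more it ranked 5th from the lowest. The genes nearest in ratio there were the mitochondrial nuclease Endog (78 and 233 reads), Serhl2 (159 and 582 reads) and the secreted matrix protein Spp1 (86 and 705 reads) below it. Above it came the MHC class II gene RT1-Ba (53 and 117 reads), LOC689064 (41 and 87 reads) and the glycoprotein Gpnmb (407 and 860 reads), reads being given for KXH and then water. Endog lay 0.29 and RT1-Ba 0.14 away on the log2 scale. With 2 libraries this likeness is a closeness of a single ratio and says nothing of a shared pattern.

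**Figure D2:**
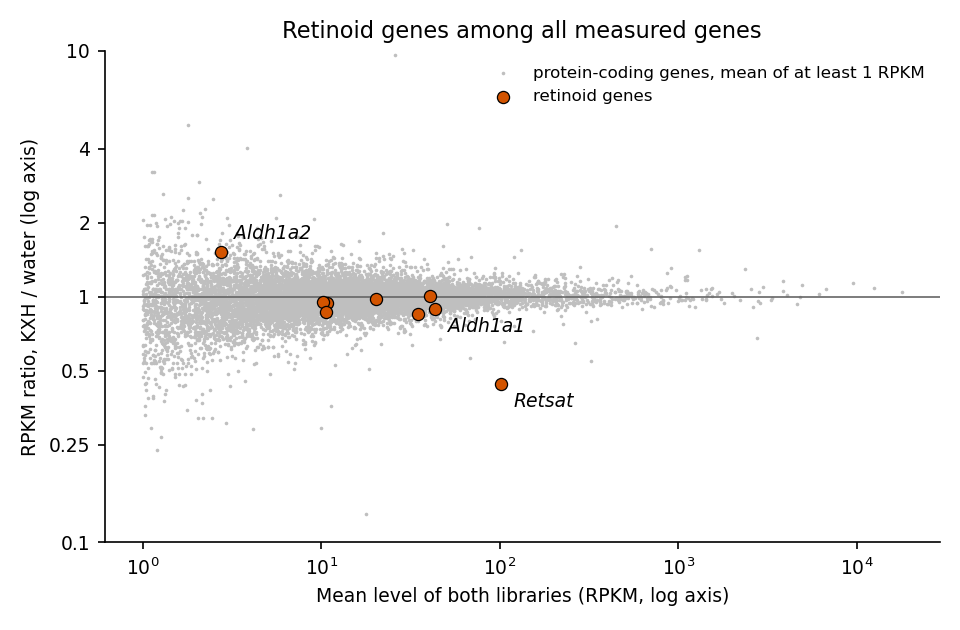
RPKM ratio of KXH over water (log axis) against the mean level of both libraries (RPKM, log axis) for genes whose mean level reached 1 RPKM, with reads in both libraries (grey), and the 9 retinoid genes (orange). Retsat, at a mean of 101 RPKM, lies apart below the cloud, and Aldh1a2 lies at 1.52 at a mean of 2.76 RPKM. The other 7 lie inside the cloud.

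Genes beside Retsat on the chromosome did not share its ratio. In the RefSeq gene order, Retsat on the plus strand of rat chromosome 4 has Elmod3 on the minus strand before it and Tgoln2, which encodes a trans-Golgi membrane protein, on the minus strand after it. Elmod3 had 83 reads with KXH and 106 with water (ratio 0.841, interval 0.623 to 1.13). Tgoln2 had 2826 and 3074 reads (ratio 0.987, interval 0.938 to 1.04), and the intervals of both include 1. Further out, the actin-capping gene Capg, the methionine adenosyltransferase Mat2a and the thymosin Tmsb10 had ratios of 1.18, 1.10 and 1.32 with intervals above 1. Tcf7l1 and Kcmf1, at 1.18 and 1.07, had intervals that include 1. Whether counting used strand is not given in the sources used here, so reads where genes overlap cannot be told apart.

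**Figure D3:**
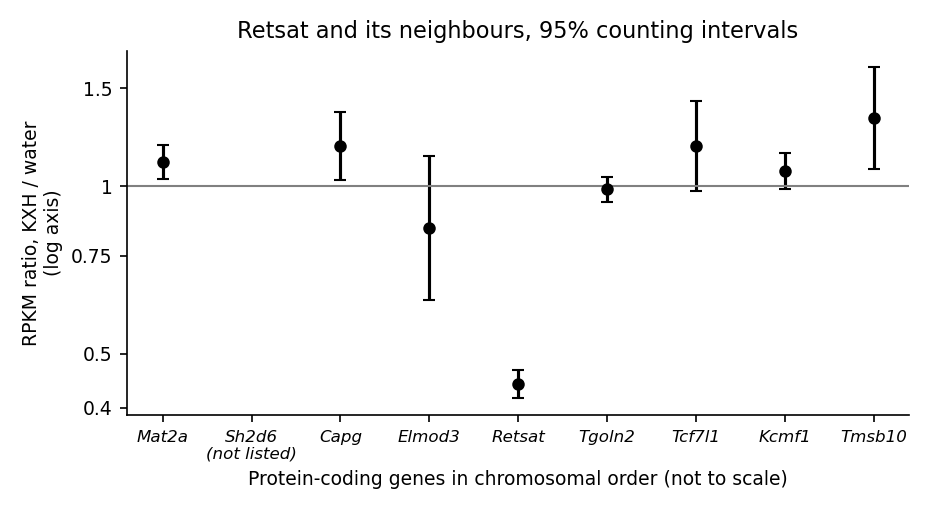
RPKM ratio of KXH over water (log axis) for Retsat and the 4 protein-coding genes on either side in RefSeq order (spacing not to scale), with 95% exact counting intervals as bars; Sh2d6 was in neither table. Retsat lies at 0.441 and its 7 measured neighbours between 0.841 and 1.32.

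The 250 bases before the RefSeq start sites of the 2 genes past 1.5-fold, and a 30-base stretch at the start of Rarb, are shown to compare the promoters of the genes that differed with a known retinoic acid response element. They come from RefSeq on the GRCr8 assembly, whereas the submitters' processing notes name rn6, so the coordinates do not apply to the count tables. Capitals mark a motif that RAR, RXR and their partners recognise (AGGTCA or its variants, spelled out below, on either strand), and in Rarb the whole paired element.
Retsat, chr4:106211209-106211458, plus strand: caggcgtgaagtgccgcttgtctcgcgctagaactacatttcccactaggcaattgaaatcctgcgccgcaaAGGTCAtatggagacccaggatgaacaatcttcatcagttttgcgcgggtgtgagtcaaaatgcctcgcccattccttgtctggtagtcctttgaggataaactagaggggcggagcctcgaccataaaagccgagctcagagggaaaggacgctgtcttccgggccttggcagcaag
Aldh1a2, chr8:80758391-80758640, plus strand: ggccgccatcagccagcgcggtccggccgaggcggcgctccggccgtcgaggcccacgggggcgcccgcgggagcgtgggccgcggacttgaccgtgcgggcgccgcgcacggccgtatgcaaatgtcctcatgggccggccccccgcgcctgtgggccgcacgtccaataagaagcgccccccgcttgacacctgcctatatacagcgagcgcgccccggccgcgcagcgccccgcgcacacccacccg
Rarb, chr15:11336409-11336438, plus strand: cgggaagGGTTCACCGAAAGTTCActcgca

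All 9 genes had a window of 300 bases (250 before and 50 after the start site) in the RefSeq table, Rarg with 2, which makes 10 windows. The Rarb window held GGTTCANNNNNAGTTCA, the well-known response element by which retinoic acid induces Rarb, starting 24 bases past the listed start site. It overlaps the GGTTCA and AGTTCA matches there. This paired motif was in 3 of 33469 such windows over all genes (0.00896%). The Retsat window held a single AGGTCA starting 178 bases before the start site, and a Rarg window held another on the opposite strand, 225 bases before it. AGGTCA occurs in 16.2% of all windows, GGTTCA in 11.7% and AGTTCA in 14.5%. Neither AGGTCANAGGTCA, the spacing used by PPAR with RXR and found in 0.0538% of windows, nor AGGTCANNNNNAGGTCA, found in 0.00896%, was in a window of the 9. The Aldh1a2 window held none of the motifs, and neither did those of Aldh1a1, Dhrs3, Rara, Rxra and Rxrb. It was 76% G and C, against 54.3% for Retsat and a median of 51.7% over all windows. The other windows of the 9 genes ran from 48.3% (Aldh1a1) to 84.7% (Rxra). Rxrb was at 74%, a Rarg window at 71% and Rara at 70.3%. A match is a stretch of letters, and binding was not measured.

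The enzymes that use up retinal differed less than Retsat. Aldh1a1, the more abundant retinaldehyde dehydrogenase, was at 40.8 RPKM with KXH (1198 reads) and 46.0 RPKM with water (1450 reads), a ratio of 0.887 (0.821 to 0.959). Dhrs3, the reductase that turns retinal back into retinol, was at 32.0 RPKM (737 reads) and 37.6 RPKM (929 reads), a ratio of 0.852 (0.773 to 0.940). Both were thus somewhat lower with KXH, by 1.13 and 1.17 times, with intervals below 1. Over all genes, 16.3% had an interval below 1 and 11.2% one above 1, so intervals off 1 were common in this pair of libraries.

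Aldh1a2 was at 3.33 RPKM with KXH (105 reads) and 2.18 RPKM with water (74 reads), 1.52-fold higher (interval 1.12 to 2.08). This is just past 1.5-fold, on the fewest reads of the 9 genes. The water reads covered 86.7% of its length and the KXH reads 97.7%. Aldh1a1 was therefore 12.3 times as abundant as Aldh1a2 per length in the KXH library and 21.1 times in the water library. Aldh1a7, the close rodent relative of Aldh1a1, had 2 and 3 reads. Where only unique reads are kept, reads that fit both copies can be lost or split, so the level of Aldh1a1 is uncertain to that extent.

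The order of the enzymes by level was the same in both libraries. Retsat was highest, then Aldh1a1, Dhrs3 and Aldh1a2. Retsat stood 3.05 times above Aldh1a1 in the water library and 1.52 times above it in the KXH library. Against Dhrs3 these values were 3.74 and 1.93. Of the summed RPKM of the 9 genes, Retsat made up 43.9% with water and 27.0% with KXH. The sum was 320.0 RPKM with water and 229 with KXH, 1.40-fold lower. Without Retsat it was 180 and 167 RPKM, 1.08-fold lower.

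**Figure D4:**
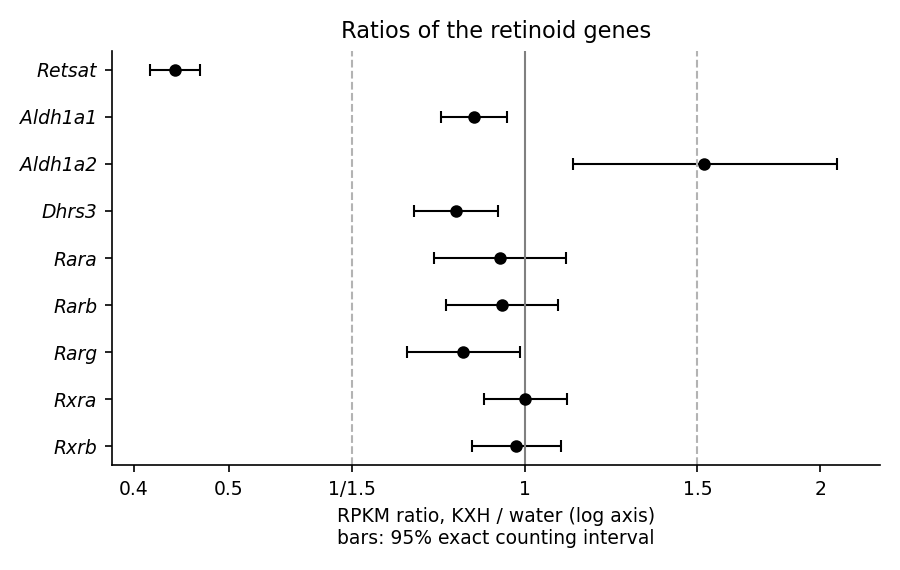
RPKM ratio of KXH over water (log axis) for each of the 9 retinoid genes, with 95% exact counting intervals as bars; the solid line marks 1 and the dashed lines 1.5-fold in either direction. Retsat lies at 0.441 and Aldh1a2 at 1.52, and the intervals of Rara, Rarb, Rxra and Rxrb include 1.

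The retinoic acid receptors lay close together in level. Rara was at 10.4 RPKM with KXH and 11.1 with water (312 and 355 reads). Rarb was at 9.92 and 10.5 RPKM (431 and 488 reads), and Rarg at 9.85 and 11.4 RPKM (408 and 506 reads). Their ratios were 0.944 for Rara (0.808 to 1.10), 0.949 for Rarb (0.831 to 1.08) and 0.866 for Rarg (0.758 to 0.989). All were lower with KXH, but a difference was not detectable at this depth for Rara and Rarb. For Rarg the interval reached 1 under other scalings, with upper bounds of 1.002 for the trimmed mean of M values and 1.005 for the median of ratios. The summed level of the 3 receptors was 30.2 RPKM with KXH and 32.9 with water, a ratio of 0.919. The order of the 3 levels differed between the libraries, with Rara highest with KXH and Rarg highest with water.

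The RXR genes were nearly equal in both libraries. Rxra was at 40.7 RPKM with KXH and 40.6 with water (803 and 861 reads; ratio 1.00, interval 0.909 to 1.10). Rxrb was at 20.0 and 20.4 RPKM (696 and 762 reads; ratio 0.981, interval 0.884 to 1.09). No difference was detectable at this depth for either gene. The third family member, Rxrg, known for its presence in muscle, is not among the 9 and was the most abundant RXR, at 50.6 and 49.4 RPKM (1398 and 1466 reads; ratio 1.02, interval 0.951 to 1.10). Rxra and Rxrb together summed to 60.7 RPKM with KXH and 61.0 with water, 2.01 and 1.85 times the RAR sum. With Rxrg included the RXR sum was 111 and 110.4 RPKM, 3.68 and 3.36 times that of the RARs.

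Over the 9 genes, the counting interval lay below 1 for 4 (Retsat, Aldh1a1, Dhrs3 and Rarg), above 1 for 1 (Aldh1a2) and included 1 for 4. Of the 4 with intervals below 1, Retsat was 2.27-fold lower and the other three were 1.13-fold to 1.17-fold lower. The shares of all genes with such intervals, 16.3% below and 11.2% above, are the values to read these counts against.

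The rest of the pathway was described with 6 lists of 111 genes in all, of which 65 reached a mean level of 1 RPKM. Of those 65, 2 were at least 1.5-fold higher and none at least 1.5-fold lower, against 1.39% and 2.48% of all genes, and ratios ran from 0.724 to 1.70. Their intervals lay above 1 for 9 genes, below 1 for 9 and included 1 for 47, against 11.2% above and 16.3% below over all genes. The median ratio was 0.972, close to the 0.985 of all genes.

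Of 13 measured genes for retinoid transport, binding and storage, 1 had an interval above 1 and none below, against 11.2% and 16.3% of all genes. The median log2 ratio with 1 RPKM added was -0.05, against -0.02 over all genes. The lipase Lpl, which also frees retinyl esters from lipoproteins, was at 1096 and 1100.0 RPKM in the KXH and water libraries. Fabp4, a fatty acid binding protein of fat cells, macrophages and capillary endothelium, was at 399 and 359 RPKM (ratio 1.11, 1.06 to 1.17). The acyltransferase Dgat1, which can esterify retinol, was at 31.6 and 30.2 RPKM. Lrat, the main enzyme of retinyl ester formation, was low at 2.11 and 2.39 RPKM with an interval of 0.711 to 1.10. The retinol receptor Stra6 had 2 and 3 reads. Lrat and Stra6 are named for their role, after their values were seen.

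Among 12 measured genes for forming retinol, retinal or retinoic acid, the median log2 ratio was -0.06. Of their intervals 1 lay above 1 and 1 below, against 11.2% and 16.3% of all genes. This list joins enzymes that work in opposite directions between retinol and retinal. Akr1c15, listed under its older symbol Akr1cl, was at 334 and 308 RPKM (1.08, 1.05 to 1.12). The retinal reductase Dhrs4 was at 121 and 128 RPKM (0.948, 0.896 to 1.002) and Adh5 at 37.3 and 35.5 RPKM. Rdh10, the dehydrogenase that makes retinal for embryonic retinoic acid synthesis, stood at 4.36 RPKM with KXH and 5.87 with water, from 65 and 94 reads. Its ratio of 0.743 had the interval 0.533 to 1.03, and a difference was not detectable at this depth. The third retinaldehyde dehydrogenase, Aldh1a3, had 41 and 33 reads (interval 0.823 to 2.18). Rdh10 and Aldh1a3 were also named after their values were seen.

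Breakdown of retinoic acid was represented by 2 measured genes, with a median log2 ratio of -0.07 and both intervals including 1. Cyp26b1, which hydroxylates retinoic acid, was at 3.74 and 3.73 RPKM (239 and 256 reads; ratio 1.00, interval 0.837 to 1.20). Cyp1b1 was at 5.09 and 5.71 RPKM (ratio 0.891, 0.721 to 1.10). Cyp26a1, the form that retinoic acid induces most strongly in many cells, was in neither table. The tables also lack genes that every heart expresses, such as titin (Ttn), so an absent symbol was not read as 0.

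Of 13 measured genes in the list of Rxrg and the partners of RXR, 4 intervals lay above 1 and 1 below, against 11.2% and 16.3% of all genes. The median log2 ratio was 0.03. The pregnane X receptor Nr1i2 was the only one past 1.5-fold, at 1.40 and 0.822 RPKM (46 and 29 reads; 1.70, 1.05 to 2.81). The reads covered only 43.8% of the Nr1i2 length with KXH and 39.7% with water. Ppara, the PPAR of fatty acid oxidation, was at 62.8 and 58.4 RPKM (1.08, 1.01 to 1.15), and the thyroid hormone receptor Thra at 41.3 and 44.0 RPKM. Pparg, under which Retsat is induced in fat cells, was at 6.41 and 5.84 RPKM with an interval of 0.888 to 1.36, and is named for that role after its value was seen. The 14 measured coregulators had a median log2 ratio of -0.08, with none past 1.5-fold. Intervals lay below 1 for 5 of them and above 1 for none, against 16.3% and 11.2% of all genes. Tbl1xr1, a corepressor component named after its value was seen, had the lowest ratio, at 21.0 and 25.2 RPKM (0.835, 0.790 to 0.882). The most abundant coregulators were the methyltransferase Prmt1 (39.6 and 37.3 RPKM), Ncoa2 (29.4 and 31.0 RPKM) and Ncor1 (28.0 and 30.4 RPKM).

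Genes widely described as induced by retinoic acid went both ways. Of 15 measured, 3 intervals lay above 1, 2 below and 10 included 1, with a median log2 ratio of -0.06. Over all genes 11.2% of intervals lay above 1 and 16.3% below. Rarres1, named for its induction by retinoids, was the only one past 1.5-fold, at 5.93 RPKM with KXH and 3.68 with water (111 and 74 reads; 1.61, 1.19 to 2.19). The transglutaminase Tgm2 was at 131 and 132 RPKM (0.991, 0.958 to 1.03). The plasminogen activator Plat (1.09, 1.02 to 1.17) and the cardiac transcription factor Gata4 (1.10, 1.03 to 1.17) were slightly higher. Rarb and Dhrs3, which retinoic acid also induces in many cells, had the ratios of 0.949 and 0.852 given above.

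**Figure D5:**
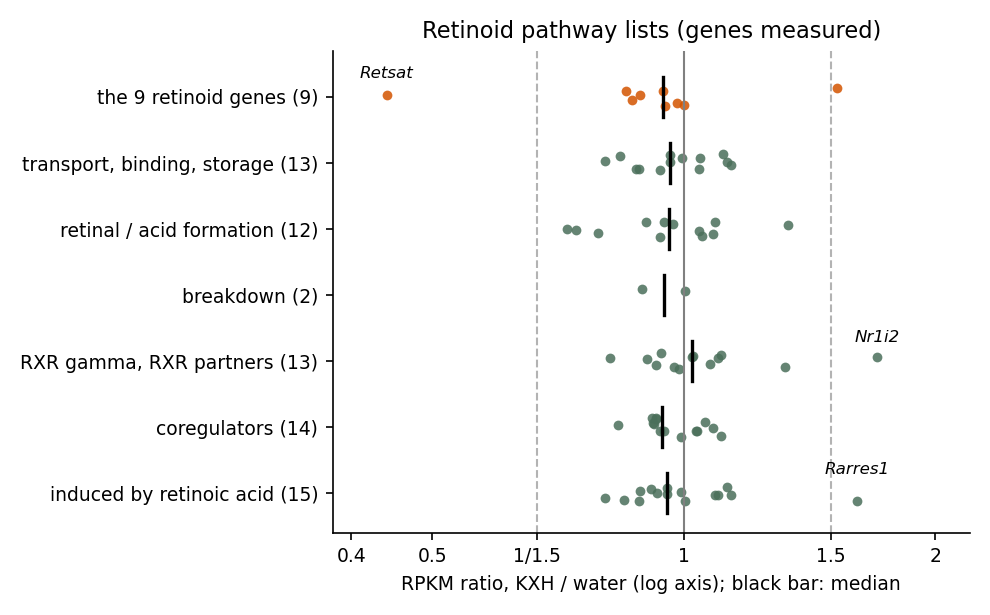
RPKM ratio of KXH over water (log axis) for the 9 retinoid genes and for the measured genes of 6 pathway lists (number measured in brackets, some genes in more than 1 list), each point a gene, spread vertically for legibility, with the median as a black bar. Only Nr1i2 and Rarres1 of the list genes lie beyond the dashed 1.5-fold lines, both higher.

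The tissue and its admixture were checked with 10 marker lists, each given as summed RPKM with KXH and then water. The 11 listed cardiomyocyte markers summed to 43960 and 40990. Markers of fat cells, a rich source of Retsat, were mixed. Plin1 and Cidec had 1 read with KXH and none with water, whereas Cfd was at 13.9 and 10.1 RPKM (1.37, 1.08 to 1.74) and Cidea at 38.8 and 47.4 RPKM (0.818, 0.721 to 0.928), and Adipoq was not listed, which was not read as 0. The 11 listed fat cell markers summed to 481 and 446, most of it Fabp4 (399 and 359), which is also a gene of macrophages and capillary endothelium. Only 4 of the 11 reached a mean level of 1 RPKM. Among the rest, Lep had 5 and 2 reads, Thrsp 1 and 6, and Pck1 4 and 11. The share of fat cells can therefore not be read from this sum. Mesothelial and epicardial markers, from cells known to express Aldh1a2, summed to 29.8 and 25.4, with 5 of 6 measured genes higher, among them Msln (304 and 230 reads) and Krt8 (47 and 29 reads), while Wt1 had a ratio of 0.899. Intervals lay above 1 for 2 of the 6, Msln and Krt8, against 11.2% of all genes. Lower with KXH, in the direction of Retsat, Aldh1a1, Dhrs3 and Rarg, were the endothelial sum (655 and 727) and the smooth muscle and pericyte sum (425 and 487). The red cell sum was also lower (2282 and 3353, most of it Hbb at 2234 and 3283). Ratios were under 1 for 12 of 12, 9 of 9 and 7 of 7 measured genes of these lists, where the median over all genes was 0.985. Intervals lay below 1 for 9, 8 and 3 of them, against 16.3% of all genes. Fibroblast markers went the other way, at 2162 and 2017. Of the 11 measured, 10 had ratios over 1 and 8 had intervals above 1, against 11.2% of all genes. Macrophage markers summed to 343 and 356, with 5 ratios over 1 and 6 under 1. Of the macrophage intervals, 1 lay above 1 and 3 below, against 11.2% and 16.3% of all genes. Atrial markers summed to 947 and 641, most of it Nppa, and hepatocyte markers to 57.2 and 59.1. The part of these cell types in the ratios of the retinoid genes was not tested.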

How the data were processed

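The samples were 2 myocardium libraries, 1 per group, grouped by the agent in the labels, with a protein-coding table of 14.1 M (KXH) and 15.1 M (water) reads (M, 1000000) and a lncRNA table of which only the total was used. The deposited tables give a count of unique reads per gene and an RPKM, which the authors' values show to be reads per kilobase and 1000000 reads of that table, per the file headers and the values (relative tolerance 1e-09). The deposited percent coverage served to describe depth and exceeds 100 in some rows. The tool Bowtie 0.12.2 and the assembly rn6 stand in the submitters' processing notes; the annotation and the counting program were not given in the sources used here. An absent row was 0 reads if the gene was in the other table.

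Computed here were RPKM ratios and their 95% exact (Clopper-Pearson) intervals from the KXH share of each gene's reads, for counting error only. Genes below a mean level of 1 RPKM were left out; 1.5-fold was the threshold. The median log2 ratios of lists add 1 RPKM. The members, lists and naming rule were chosen with earlier results of these data known. The rule names all members, pathway genes past 1.5-fold, the 3 most abundant per list, the 3 nearest ratios on each side of Retsat, and its neighbours. Older symbols in a RefSeq table (GRCr8) matched 3 list genes. Alternatives were 4 scalings, a length correction, and other pseudocounts, thresholds, filters and interval levels. The steps were tested on simulated data. Some list genes are not reported here by name. Software was scipy 1.17.1, pandas 2.3.3, matplotlib 3.10.9 and numpy 2.4.6 under Python 3.11.15.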

Additional observations from a re-analysis of the deposited data

How the results depend on the processing

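Of 175 alternative values, 168 stayed close to the reported value and 7 moved. For ratios and receptor sums, close meant within the counting error of the reported value. For list medians it meant within the median counting error of the single genes, and for counts within 1.5 times. The 4 scalings shifted all RPKM ratios by at most 0.023 on the log2 scale, so they could move ratios only slightly. No ratio whose counting interval lay off 1 changed direction. Values close to no difference did pass to the other side: the ratio of the RXR sums (0.995) was 1.00 to 1.01 under 3 of the 4 scalings, Rxra (1.00) was 0.998 and Rxrb (0.981) 1.001 with the length trend removed, and with no filter on level the median log2 ratios of the formation and breakdown lists were 0.02 and 0.003. The Retsat ratio ran from 0.442 to 0.448 over 5 alternatives (4 scalings and removal of a length trend), and that of Aldh1a2 from 1.53 to 1.55. The number of retinoid genes past the threshold, 2 as reported, was 1 at 2-fold (Retsat; 0.745% of all genes in either direction) and 1 among genes at 5 RPKM or more (Retsat; 0.941%), because Aldh1a2 then drops out. The number of pathway genes past the threshold, 2 as reported, was 7 when a 25% difference sufficed (14.3% of all genes), 0 at 2-fold, 0 at 5 RPKM or more and 16 of 88 (18.2%) with no filter on level, where 18.0% of all genes passed. With 99% intervals, 9 rather than 18 pathway genes lay off 1, and of the 9 retinoid genes 4 did (all but Rarg of the 5). The share of all genes off 1 at the 99% level was not computed, so these counts cannot be read against it. No paired analysis was possible because each group had 1 library. For the same reason no library could be left out. Depth limits Aldh1a2 most, at 179 reads in both libraries together, and then the RAR genes at 667 to 919 reads each.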

Other observations

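A few further genes on the marker and pathway lists, with links to retinoids or to lipids, were singled out after their values were seen and rest on 1 library per group. Nr2f2, a nuclear receptor of atrial and venous cells (COUP-TFII) that can pair with RXR, had 159 reads with KXH and 246 with water and was 1.44-fold lower (interval 1.18 to 1.77), while Nppa on the same atrial list was 1.56-fold higher; of the 8 measured genes of that list 4 had ratios over 1 and 4 under 1. Stard10, a phospholipid transfer protein on that list, was 1.78-fold lower (1.40 to 2.26). Cidea, a lipid droplet protein, was at 38.8 RPKM with KXH and 47.4 with water, 1.22-fold lower (1.08 to 1.39), in libraries where Plin1 and Cidec had at most 1 read. Akr1b10, an aldo-keto reductase on the list for forming retinol, retinal or retinoic acid, had 186 and 253 reads and was 1.27-fold lower (1.04 to 1.54).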
